A study of Mus musculus with 6 samples.

Results

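Transcripts of genes of mitosis and of the G2 to M transition were followed in leukaemic mouse B cells that lacked or carried gamma-catenin. The set is a list of 47 genes taken by name, among them the mitotic cyclins and their kinase, spindle kinesins, kinetochore subunits and spindle checkpoint proteins. Of these, 46 were measured, out of 19938 genes on array rows that carry exactly 1 gene symbol. Each gene was read from its probe set with the highest mean. The missing member was Ccnb1, which encodes cyclin B1 and had no such row.

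The KO cells came from Jup-/- donors and were set against cells from Jup+/+ donors (WT), with 3 samples of each genotype, labelled as biological replicates, on 1 array each. Jup encodes gamma-catenin, also called plakoglobin, a junction protein related to beta-catenin. All donors were on the C57BL/6 background. Fetal liver cells of either genotype (CD45.2+) had first rebuilt the blood system of CD45.1+ mice for at least 8 weeks. Bone marrow of these chimeras was then infected with a retrovirus that carries green fluorescent protein and BCR-ABL1, a constantly active tyrosine kinase made by a chromosome translocation, and was given to lethally irradiated CD45.1+ recipients. At day 21 the fluorescent CD45.2+ B220+ BP-1+ B cells of the bone marrow were sorted, so both genotypes carried BCR-ABL1. The part of Jup that the KO allele lacks, and whether a sample pooled several animals, is not stated by the labels, so p-values measure the spread between these samples. The study's title links gamma-catenin to progression of this leukaemia, and the comparison here asks whether the transcripts of dividing cells differed with it.

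Cells enter mitosis when the kinase Cdk1, bound to cyclins A and B and freed of inhibitory phosphates by Cdc25 phosphatases, becomes active. Polo and Aurora kinases then build the spindle, the checkpoint proteins hold the anaphase-promoting complex until kinetochores are attached, and this complex releases the sister chromatids by marking securin and cyclin B for destruction. Most of these genes are transcribed in a wave in late S phase, G2 and mitosis, driven by B-Myb with the MuvB complex, FOXM1 and NF-Y, and kept silent in resting cells by the DREAM complex. In bulk RNA such as this, fewer cells in G2 and mitosis and less RNA per such cell cannot be told apart.

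The arrays were alike in level. Medians over the tested rows lay between 7.53 and 7.61 on the log2 intensity scale, and any 2 arrays correlated at r = 0.991 to 0.996 over probe sets, whose values do not vary independently. Jup itself measured 7.04, 7.06 and 7.27 in the KO arrays, against 8.04, 7.62 and 8.51 in the WT arrays, a log2 difference of -0.93 (SE 0.20, 95% interval -1.38 to -0.48, limma adjusted p = 0.171). The groups did not overlap, but the difference did not pass, and where the probes lie relative to the deletion is not known. Markers of the sorted B cells were bright, with a mean over 11 measured genes of 12.32 to 12.43 in KO and 12.28 to 12.38 in WT. Of these genes 6 had a higher and 5 a lower KO mean, and 0 passed. At an unadjusted p under 0.05 in limma, Rag1 was higher in KO (log2 difference 0.50) and Enpep lower (-0.23). Enpep encodes BP-1 of the sort, and Ptprc encodes CD45, of which B220 is a form. Ptprc gave 0.19 (limma adjusted p = 0.554). Groups did not overlap for Enpep and Ptprc, 2 of the 11 genes, as for 14% of all probe sets. Myeloid markers had a higher KO mean for 17 of 17 genes, with a mean level of 8.68 to 8.77 in KO and 7.75 to 8.28 in WT, and 3 of them (Mpo, Elane and Ctsg) passed over all probe sets in limma. Mature B cell markers had a higher KO mean for 10 of 10 measured genes, at 8.91 to 9.23 in KO and 8.47 to 8.77 in WT. Of them 0 were past the threshold and 4 had an unadjusted p under 0.05. Over all probe sets 44.2% had a higher KO mean, 9.22% had an unadjusted p under 0.05 and 0.119% passed. Erythroid markers (7.16 to 7.19 in KO, 7.04 to 7.20 in WT) and T and NK cell markers (6.12 to 6.29 in KO, 6.14 to 6.40 in WT) lay below the array medians on average. Of 10 measured erythroid genes 4 had a higher and 6 a lower KO mean. Among them Car1 was higher in KO by the test, and Car2, the brightest, gave -0.38 without passing (limma adjusted p = 0.518). WT replicate 2 stood apart in sex-linked transcripts, with Xist at 6.20, against 13.03 to 13.38 elsewhere. The Y-linked Kdm5d, Eif2s3y and Uty measured 8.57, 8.90 and 10.09 on that array, and 5.55 or less on the others. WT replicate 2 thus read as male and the other arrays as female, so sex was not balanced between the genotypes. No marker was listed at 0, and the part of other cell types and of sex in the mitotic values was not tested.

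Across the mitotic genes, KO and WT cells lay close together. Among the 46 measured genes 0 were higher and 0 lower at a limma adjusted p under 0.05. Of all 21789 probe sets 0.119% (26 of them) passed, 0.0505% higher and 0.0688% lower in KO. The median log2 difference, KO minus WT, was -0.02, and it was -0.02 over all probe sets too. At an unadjusted p under 0.05, 0 members were higher and 1 lower (Spc25), against 4.48% higher and 4.73% lower among all probe sets, 9.22% in all. That count was 0 without KO replicate 2 or WT replicate 2, and the 1 gene was Dlgap5 without KO replicate 1 and Aurka without WT replicate 3. The KO mean was above the WT mean for 16 members and below it for 30, while 44.2% of all probe sets had a higher and 55.8% a lower KO mean. The smallest adjusted p among the members was 0.491. The count of 26 over all probe sets became 82 without KO replicate 1, 5 without KO replicate 2 or KO replicate 3, and 8 without WT replicate 1 or WT replicate 3, while the count of members stayed at 0 in each case.

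The precision of the arrays sets how large a difference could have been missed. The members were well above the dim end of the scale: all 46 had a mean intensity over the median probe set, from 8.45 to 12.59. The SD between arrays of a genotype, pooled over both, had a median of 0.09 over the members and 0.12 over all probe sets. The 95% intervals of the 46 differences, each taken alone, reached down to -0.44 (Dlgap5) and up to 0.39 (Cenpe) on the log2 scale, or 0.735 to 1.31 times the WT level. All 46 intervals lay within 0.5 of 0, as did 88.9% of those of all probe sets, and 18 lay within 0.25. Leaving out any 1 array left 45 of 46 within 0.5. RMA equalises arrays, so a change shared by all transcripts would not show.

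**Figure D1:**
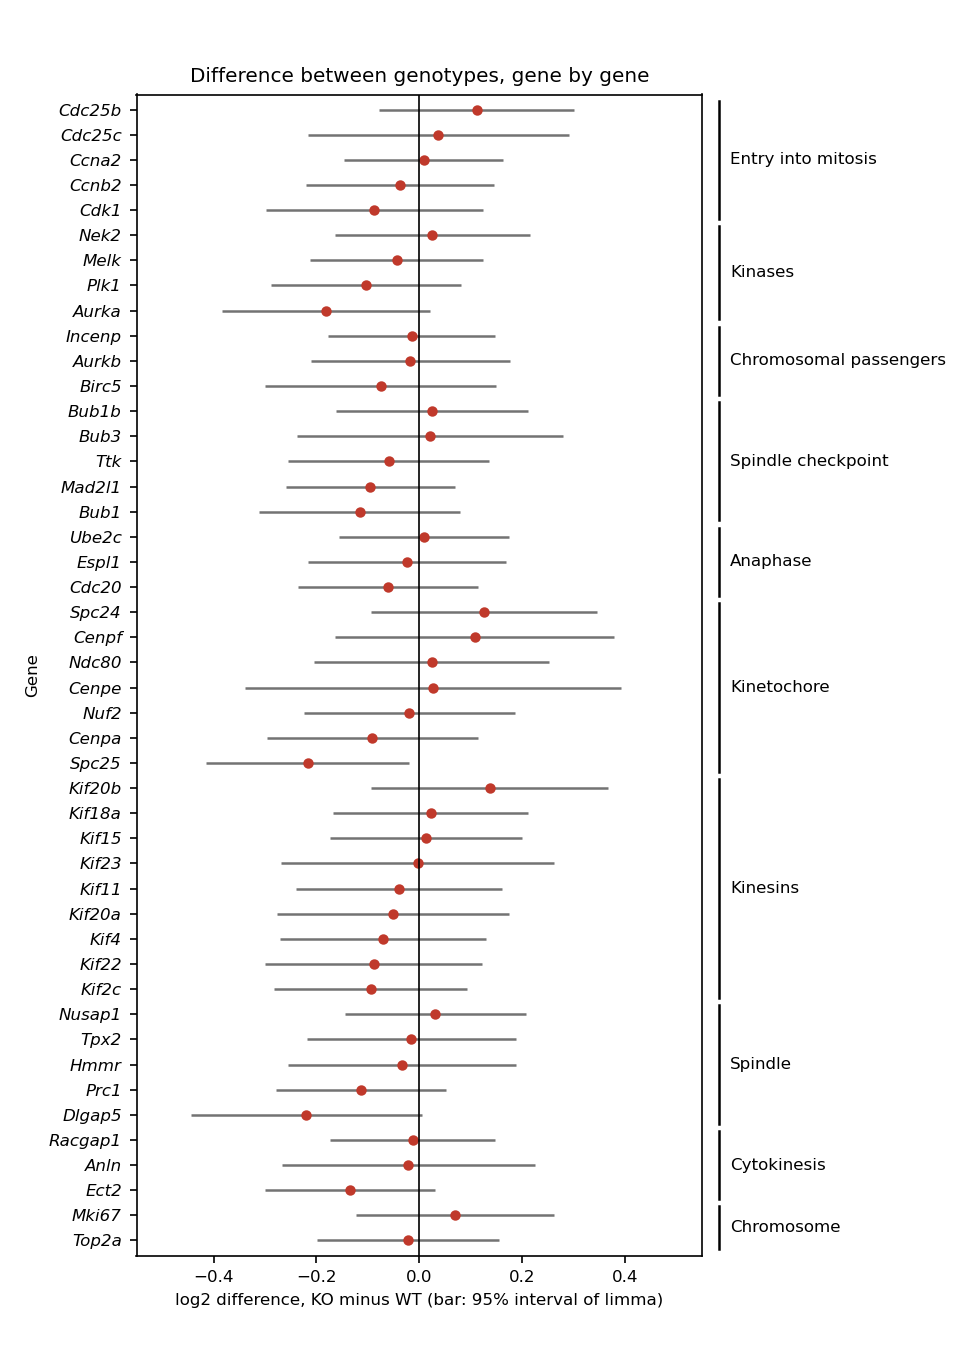
Log2 difference in intensity, KO minus WT (horizontal axis), of the 46 measured mitosis and G2/M genes, grouped by role; points are limma estimates from 3 KO and 3 WT arrays and bars their 95% intervals. The estimates lie between -0.22 and 0.14, and the interval covers 0 for 45 of the 46 genes, the other being Spc25.

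The promoters of these genes share short motifs that the list was not drawn up by. RefSeq promoters (GRCm38.p6, 250 bases before to 50 after a start site) were at hand for 39 of the 47 genes, 42 promoters in all, since 3 genes had more than 1. The core of the cell cycle homology region, TTTGAA, which the MuvB complex binds through Lin54, was looked for on both strands, and so was CCAAT, the core of the NF-Y box. TTTGAA stood in 31 of the 42 promoters (73.8%), against 17.9% of all 32851 promoters of the table. CCAAT stood in 31 as well (73.8%), against 37.4%. Both were present in 61.9%, against 6.95% of all promoters, and matches of the 2 motifs overlapped in 0 of the 42. Within 50 bases of the start site TTTGAA was found in 66.7% of the mitotic promoters and in 4.94% of all. Bub3, Prc1 and Ect2 entered with more than 1 promoter each, whose windows share the same sites. Counted by gene, 28 of 39 had TTTGAA.

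For comparison, TTTGAA was in 36.0% of the 139 promoters of other G2/M genes and in 11.4% of the 44 promoters of DNA replication genes. CCAAT was in 54.7% and 56.8% of these. The letters TTTGAA thus set the mitotic promoters apart from those of replication genes more than CCAAT did, as a description of these windows. The promoters of 6 genes are printed here 5′ to 3′, with every TTTGAA and CCAAT, on either strand, in capitals. They belong to the central kinase Cdk1, to Plk1, Aurka and Cdc20, which act at different steps of mitosis, and to Spc25 and Kif20b, the members with the lowest and the highest moderated t.
Cdk1, GRCm38.p6 chr10:69352863-69353162, minus strand: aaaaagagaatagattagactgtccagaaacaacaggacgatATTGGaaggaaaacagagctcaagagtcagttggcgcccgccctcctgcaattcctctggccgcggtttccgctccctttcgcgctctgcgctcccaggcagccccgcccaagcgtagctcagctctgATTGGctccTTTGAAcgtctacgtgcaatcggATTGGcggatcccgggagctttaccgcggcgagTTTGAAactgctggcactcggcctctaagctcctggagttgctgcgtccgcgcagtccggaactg
Plk1, GRCm38.p6 chr7:122159185-122159484, plus strand: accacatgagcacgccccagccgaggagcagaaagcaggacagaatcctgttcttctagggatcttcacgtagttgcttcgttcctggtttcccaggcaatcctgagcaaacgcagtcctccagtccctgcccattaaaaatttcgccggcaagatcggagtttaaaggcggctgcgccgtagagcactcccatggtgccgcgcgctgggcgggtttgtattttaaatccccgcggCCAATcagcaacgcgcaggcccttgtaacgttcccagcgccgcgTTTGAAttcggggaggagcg
Cdc20, GRCm38.p6 chr4:118437294-118437593, minus strand: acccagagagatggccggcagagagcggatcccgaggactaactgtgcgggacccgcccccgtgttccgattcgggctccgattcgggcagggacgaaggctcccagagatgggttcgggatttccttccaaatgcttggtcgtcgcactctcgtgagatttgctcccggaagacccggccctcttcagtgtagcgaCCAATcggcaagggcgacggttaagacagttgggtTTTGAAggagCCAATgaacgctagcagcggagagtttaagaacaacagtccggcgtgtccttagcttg
Aurka, GRCm38.p6 chr2:172370521-172370820, minus strand: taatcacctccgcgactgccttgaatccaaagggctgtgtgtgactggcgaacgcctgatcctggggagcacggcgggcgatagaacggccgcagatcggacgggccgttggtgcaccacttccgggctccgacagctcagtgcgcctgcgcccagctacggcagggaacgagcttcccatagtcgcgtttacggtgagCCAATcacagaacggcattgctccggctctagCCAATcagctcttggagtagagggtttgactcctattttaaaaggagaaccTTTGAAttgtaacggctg
Spc25, GRCm38.p6 chr2:69206164-69206463, minus strand: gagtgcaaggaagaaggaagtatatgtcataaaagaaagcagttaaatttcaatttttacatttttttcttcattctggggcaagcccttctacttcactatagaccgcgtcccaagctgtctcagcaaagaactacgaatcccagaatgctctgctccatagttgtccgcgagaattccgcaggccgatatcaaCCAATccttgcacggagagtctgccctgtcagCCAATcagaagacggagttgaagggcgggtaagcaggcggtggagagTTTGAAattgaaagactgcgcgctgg
Kif20b, GRCm38.p6 chr19:34922108-34922407, plus strand: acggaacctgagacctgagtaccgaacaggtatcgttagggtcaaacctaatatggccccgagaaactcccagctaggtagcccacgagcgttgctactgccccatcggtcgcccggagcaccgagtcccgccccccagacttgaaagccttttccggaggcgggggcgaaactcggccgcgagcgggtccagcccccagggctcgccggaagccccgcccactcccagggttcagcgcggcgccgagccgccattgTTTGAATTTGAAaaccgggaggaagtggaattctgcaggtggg

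In Cdk1 the matches of TTTGAA start 71 and 15 bases before the start site, in Cdc20 18 bases before it, and in Plk1, Aurka and Spc25 they start 30, 32 and 24 bases after it. Kif20b holds TTTGAA back to back and no CCAAT. Neither motif was found in the windows of Melk, Birc5, Mad2l1, Nuf2, Kif18a and Nusap1, which says only that these letters are not there. The 28 measured genes with TTTGAA had a median log2 difference of -0.04, KO minus WT, and the 10 without it a median of 0.002. Both ranges straddled 0, from -0.22 to 0.14 and from -0.12 to 0.11.

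**Figure D2:**
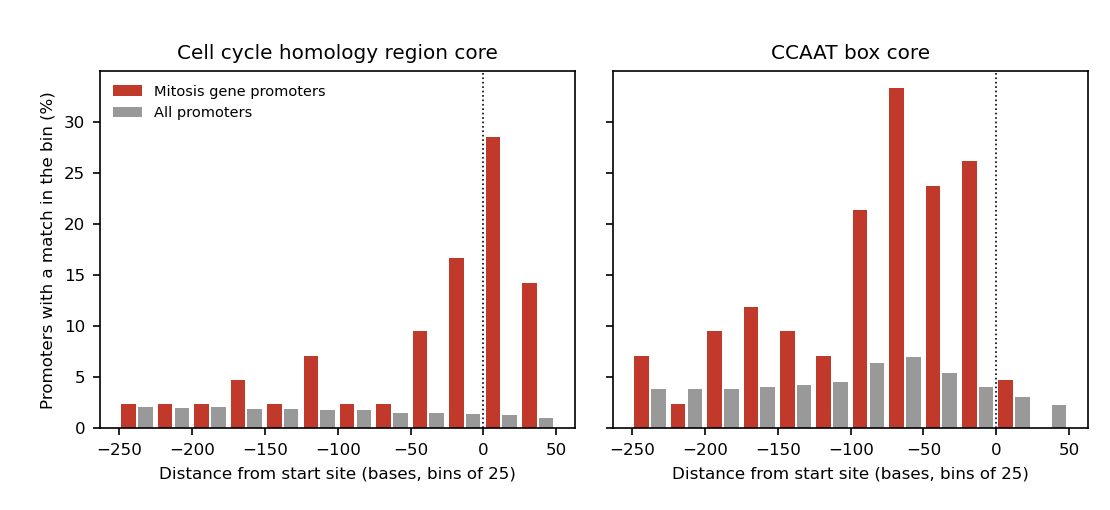
Share of promoters (vertical axis, %) with a match in each bin of 25 bases along the distance from the start site (horizontal axis), for the 42 promoters of mitosis genes and all 32851 RefSeq promoters. Left, TTTGAA, which peaks in the 25 bases after the start site (28.6% against 1.31%); right, CCAAT, which peaks between 75 and 50 bases before it (33.3% against 6.99%).

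Cyclins, their kinase and the phosphatases that switch it on differed little between the genotypes, with 3 of 5 measured genes higher and 2 lower in KO and 0 past the threshold. Cdk1, the kinase at the centre of mitotic entry, measured 11.89, 11.76 and 11.67 in the KO arrays, against 11.96, 11.88 and 11.74 in the WT arrays. The ranges overlapped, and the log2 difference was -0.09 (SE 0.09, 95% interval -0.30 to 0.12, limma adjusted p = 0.856). Ccna2, which encodes cyclin A2, was the steadiest member, with all 6 arrays between 12.58 and 12.60. Ccnb2, which encodes cyclin B2, gave -0.04. Of the phosphatases, Cdc25b measured 11.64, 11.65 and 11.52 in the KO arrays, against 11.59, 11.47 and 11.41 in the WT arrays. Its difference of 0.11 (SE 0.08, 95% interval -0.08 to 0.30, limma adjusted p = 0.766) was the largest upward one of this group and did not pass, and Cdc25c gave 0.04.

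Of the 4 mitotic kinases 1 had a higher and 3 a lower KO mean, and 0 passed. Plk1, the polo kinase that drives spindle assembly and mitotic exit, measured 12.14, 12.03 and 12.00 in the KO arrays, against 12.25, 12.16 and 12.08 in the WT arrays, and its difference was -0.10 (SE 0.08, 95% interval -0.29 to 0.08, limma adjusted p = 0.78). Aurka, which acts at the spindle poles, measured 10.81, 10.72 and 10.65 in the KO arrays, against 10.99, 10.97 and 10.77 in the WT arrays. KO replicate 1 overlapped WT replicate 3, and the difference of -0.18 (SE 0.09, 95% interval -0.38 to 0.02, limma adjusted p = 0.603) did not pass. Nek2, a kinase of centrosome separation, measured 10.20, 10.13 and 10.03 in the KO arrays, against 10.18, 10.07 and 10.03 in the WT arrays, a difference of 0.03. Melk, a kinase whose RNA peaks in dividing cells, gave -0.04. Tpx2, the spindle protein that activates Aurora A, gave -0.02.

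The chromosomal passenger complex corrects faulty attachments and later steers cytokinesis, and its 3 listed genes differed by -0.07 to -0.01 on the log2 scale. Aurkb, its kinase, measured 11.98, 11.89 and 11.85 in the KO arrays, against 12.01, 11.97 and 11.81 in the WT arrays, a difference of -0.02 (SE 0.08, 95% interval -0.21 to 0.18, limma adjusted p = 0.976). Birc5, which encodes survivin, measured 9.86, 9.85 and 9.66 in the KO arrays, against 9.93, 9.96 and 9.71 in the WT arrays, a difference of -0.07. In both genes replicate 3 was the lowest array within each genotype, as it was for Cdk1, Plk1 and Aurka. Over the 46 members, replicate 3 was the lowest KO array for 19 and the lowest WT array for 39. Incenp, the scaffold, measured 10.33, 10.29 and 10.33 in the KO arrays, against 10.33, 10.38 and 10.29 in the WT arrays, a difference of -0.01.

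Spindle checkpoint genes went either way by small amounts, with 2 of 5 higher and 3 lower in KO and 0 past the threshold. Bub1, a kinase that recruits the checkpoint to kinetochores, measured 11.23, 11.07 and 11.08 in the KO arrays, against 11.27, 11.32 and 11.14 in the WT arrays, a difference of -0.12 (SE 0.09, 95% interval -0.31 to 0.08, limma adjusted p = 0.763). Bub1b, which encodes BubR1 of the mitotic checkpoint complex, measured 10.83, 10.81 and 10.72 in the KO arrays, against 10.84, 10.80 and 10.65 in the WT arrays, a difference of 0.03. Its partner Bub3 gave 0.02, and Ttk, the kinase Mps1 that starts the signal, -0.06. Mad2l1, which encodes the Cdc20 inhibitor Mad2, measured 11.87, 11.78 and 11.84 in the KO arrays, against 11.89, 11.91 and 11.97 in the WT arrays. Its groups did not overlap, although they differed by only -0.09 (limma adjusted p = 0.775).

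Of the 3 genes of anaphase 1 had a higher and 2 a lower KO mean, and 0 passed. Cdc20, the activator of the anaphase-promoting complex that the checkpoint restrains, measured 10.84, 10.75 and 10.70 in the KO arrays, against 10.89, 10.80 and 10.78 in the WT arrays, a difference of -0.06 (SE 0.08, 95% interval -0.24 to 0.11, limma adjusted p = 0.893). Ube2c, the ubiquitin-conjugating enzyme of that complex, measured 11.09, 11.00 and 11.07 in the KO arrays, against 11.04, 11.10 and 11.00 in the WT arrays, a difference of 0.01. The arrays interleaved in both genes. Espl1, which encodes separase, the protease that cuts cohesin, gave -0.02.

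Of the 7 kinetochore genes 4 had a higher and 3 a lower KO mean, and 0 passed. Spc25 and Spc24 encode the inner part of the Ndc80 complex, which ties kinetochores to microtubules. Spc25 measured 9.82, 9.76 and 9.99 in the KO arrays, against 10.03, 10.15 and 10.05 in the WT arrays, so every KO array was below every WT array. Its difference was -0.22 (SE 0.09, 95% interval -0.41 to -0.02, limma adjusted p = 0.491), with an unadjusted p of 0.0347. Spc24 measured 8.60, 8.40 and 8.54 in the KO arrays, against 8.47, 8.46 and 8.23 in the WT arrays, with overlap, and its difference was 0.13 (SE 0.10, 95% interval -0.09 to 0.35, limma adjusted p = 0.777). The other subunits, Ndc80 and Nuf2, gave 0.02 and -0.02. Partners within 1 complex therefore had differences of opposite sign, none of which passed. Cenpa, the histone H3 variant that marks centromeres, gave -0.09.

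Cenpe and Cenpf, very large proteins of the outer kinetochore, of which Cenpe is a kinesin motor, varied strongly within the genotypes, and Cenpe had the widest range of all members over the 6 arrays. Cenpe measured 9.79, 9.38 and 9.86 in the KO arrays, against 9.74, 9.85 and 9.37 in the WT arrays. KO replicate 2 and WT replicate 3 were low and the other 4 arrays close together, so the SD was 0.26 in KO and 0.25 in WT and the difference only 0.03. Cenpf measured 9.67, 9.38 and 9.72 in the KO arrays, against 9.49, 9.64 and 9.32 in the WT arrays, with the same 2 arrays lowest, and a difference of 0.11.

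Of the 9 kinesins, 3 had a higher and 6 a lower KO mean, and 0 passed. Kif20b, a motor that acts late in cytokinesis, measured 8.93, 8.83 and 8.90 in the KO arrays, against 8.78, 8.91 and 8.55 in the WT arrays, and its difference of 0.14 (SE 0.10, 95% interval -0.09 to 0.37, limma adjusted p = 0.764) was the largest upward one of all 46 genes. WT replicate 3 was its lowest array, and the difference was 0.04 without it. Kif2c, a microtubule depolymerase that corrects attachments, measured 10.024, 9.996 and 10.029 in the KO arrays, against 10.184, 10.171 and 9.980 in the WT arrays, a difference of -0.09 (limma adjusted p = 0.811). Kif11, the motor that pushes spindle poles apart, gave -0.04, and Kif15, which can stand in for it, 0.01. Kif18a, which dampens chromosome oscillations, gave 0.02, and the chromokinesins Kif22 and Kif4 -0.09 and -0.07. The motors of the central spindle, Kif20a and Kif23, gave -0.05 and -0.003.

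Among spindle and cytokinesis proteins the lower side was led by Dlgap5, which encodes the kinetochore fibre protein HURP. It measured 10.05, 9.74 and 9.94 in the KO arrays, against 10.09, 10.23 and 10.06 in the WT arrays, without overlap, and its difference of -0.22 (SE 0.10, 95% interval -0.44 to 0.01, limma adjusted p = 0.562) did not pass. KO replicate 2 was its lowest array, and the difference was -0.14 without it. Nusap1, which bundles spindle microtubules near chromatin, measured 11.69, 11.69 and 11.75 in the KO arrays, against 11.76, 11.69 and 11.59 in the WT arrays, a difference of 0.03. Prc1, which crosslinks antiparallel microtubules of the midzone, had KO arrays between 10.10 and 10.18 and WT arrays between 10.20 and 10.29, a difference of -0.11 without overlap (limma adjusted p = 0.715). Hmmr, a spindle protein that also binds hyaluronan, gave -0.03.

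The exchange factor Ect2, which activates RhoA for the contractile ring, measured 11.58, 11.56 and 11.50 in the KO arrays, against 11.66, 11.73 and 11.64 in the WT arrays. The groups did not overlap, and the difference was -0.13 (SE 0.07, 95% interval -0.30 to 0.03, limma adjusted p = 0.645). Its binding partner Racgap1, of the centralspindlin complex with Kif23, measured 11.04, 11.00 and 11.04 in the KO arrays, against 11.03, 11.08 and 11.00 in the WT arrays, a difference of -0.01. Anln, the ring scaffold anillin, gave -0.02. Mad2l1, Spc25, Prc1, Dlgap5 and Ect2 were the 5 members whose groups did not overlap, all lower in KO. Over all probe sets the groups did not overlap for 14%, with KO the higher one for 5.94% and the lower one for 8.08%.

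The common proliferation markers overlapped between the genotypes as well. Mki67, which encodes the Ki-67 antigen that coats mitotic chromosomes, measured 12.44, 12.31 and 12.48 in the KO arrays, against 12.33, 12.43 and 12.26 in the WT arrays, a difference of 0.07 (SE 0.08, 95% interval -0.12 to 0.26, limma adjusted p = 0.884). Top2a, the topoisomerase that untangles sister chromatids, measured 11.92, 11.85 and 11.86 in the KO arrays, against 11.93, 11.96 and 11.80 in the WT arrays, a difference of -0.02 (SE 0.08, 95% interval -0.20 to 0.15, limma adjusted p = 0.968). A second, dimmer probe set of Top2a had means of 6.35 in KO and 6.39 in WT. For both genes the 3 KO arrays and the 3 WT arrays overlapped.

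**Figure D3:**
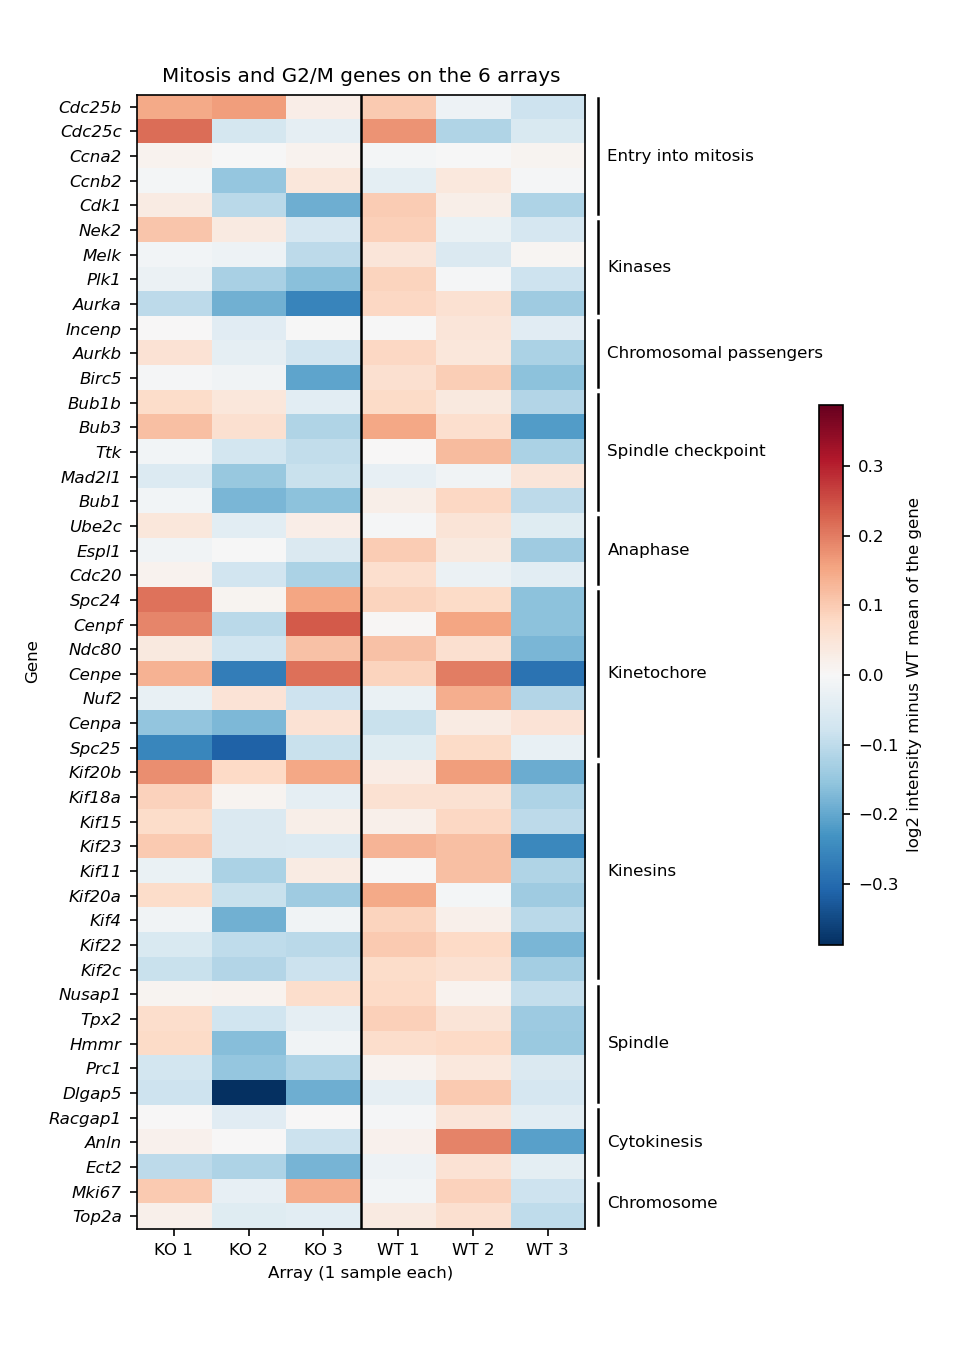
Log2 intensity of each mitosis and G2/M gene on each of the 6 arrays, as the deviation from that gene's WT mean (colour, red higher and blue lower), with KO arrays left of WT arrays and genes grouped by role. WT replicate 3, KO replicate 2 and KO replicate 3 are blue for most genes, with 4, 10 and 15 of 46 genes above the WT mean, and the KO and WT sides share both colours.

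The lowest and the highest array within each genotype lay farther apart than the means of the genotypes, although WT replicates 1 and 2 lay close together. Each gene was set relative to its WT mean and the 46 log2 deviations were averaged within an array, which gave 0.02, -0.08 and -0.04 in KO replicates 1 to 3 and 0.05, 0.06 and -0.10 in WT replicates 1 to 3. The KO mean of -0.03 (SD 0.05, n = 3) thus lay inside the WT range (SD 0.09, n = 3). WT replicate 3 was the lowest WT array for 39 of 46 genes, by a median of -0.16 relative to the other WT arrays, and KO replicate 1 was the highest KO array for 30 of 46. Without WT replicate 3 the median difference of the members was -0.08 and 39 of 46 KO means were lower, while without WT replicate 2 it was 0.01 and 20 were lower. Without KO replicate 2 there were 23 on either side, and without KO replicate 1 there were 37 lower. The sign of the median thus depended on which arrays were used.

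The role groups did not all follow the same arrays. Within KO, replicate 3 was the lowest array for the kinases (mean deviation -0.15, against -0.01 and -0.07 in KO replicates 1 and 2) and the highest for the kinetochore genes (0.09, against 0.02 and -0.12). Within WT, replicate 3 was the lowest array in each of the 10 groups, from -0.15 in the kinesins to -0.05 in the genes of mitotic entry. Between genotypes the group medians ran from -0.07 for the kinases to 0.02 for the kinetochore genes and for Mki67 with Top2a.

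**Figure D4:**
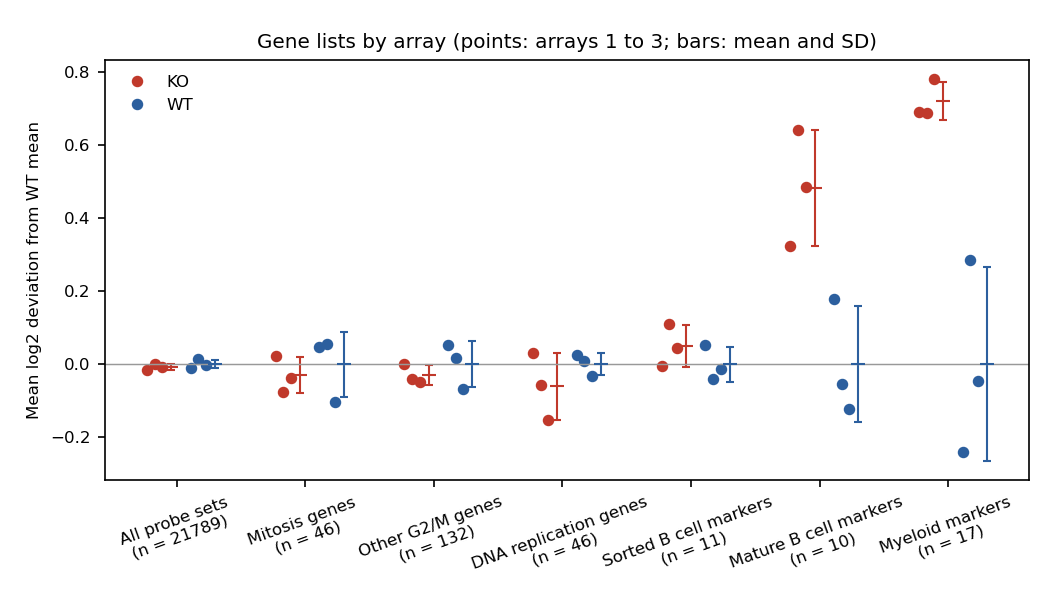
Mean log2 deviation of each gene list from its WT mean, by array (points, replicates 1 to 3 from left to right, KO left of WT; bars, mean and SD). The mitosis genes lie between -0.08 and 0.02 in KO and between -0.10 and 0.06 in WT, whereas the myeloid markers lie at 0.69 to 0.78 in KO and -0.24 to 0.28 in WT.

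The regulators of the mitotic wave also differed little. Foxm1, the forkhead factor of G2/M genes, measured 11.02, 10.95 and 10.89 in the KO arrays, against 10.81, 10.97 and 10.87 in the WT arrays, a difference of 0.07 (SE 0.08, 95% interval -0.12 to 0.25, limma adjusted p = 0.887). Mybl2, which encodes B-Myb, measured 9.71, 9.74 and 9.64 in the KO arrays, against 9.78, 9.90 and 9.78 in the WT arrays. Its groups did not overlap, and the difference was -0.12 (SE 0.08, 95% interval -0.29 to 0.05, limma adjusted p = 0.713). Of 16 listed regulators, which include the MuvB subunits, pocket proteins and NF-Y subunits, 14 were measured, 7 higher and 7 lower in KO, with a median of -0.003 and 0 past the threshold. Trp53 and Cdkn1a had no row with 1 symbol.

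Other genes of G2 and mitosis, listed by role, gave a similar picture with a few larger single values. Of 139 genes 132 were measured, and 0 were called in either direction by limma. At an unadjusted p under 0.05, 1 was higher and 7 lower, or 6.06% in all, against 9.22% of all probe sets. The median difference was -0.03. The total of 8 became 1 without KO replicate 2 and 3 without WT replicate 2. Ckap2, a microtubule-associated protein of the spindle, had the lowest moderated t. It measured 9.82, 9.52 and 9.79 in the KO arrays, against 10.11, 10.03 and 10.02 in the WT arrays, without overlap, a difference of -0.34 (SE 0.10, 95% interval -0.56 to -0.12, limma adjusted p = 0.318). Psrc1, a spindle protein, measured 9.87, 9.66 and 9.67 in the KO arrays, against 10.21, 10.06 and 9.88 in the WT arrays, a difference of -0.32. Gtse1, a microtubule protein made in S phase and G2, measured 10.20, 9.91 and 10.06 in the KO arrays, against 10.47, 10.45 and 10.18 in the WT arrays. KO replicate 1 and WT replicate 3 overlapped, with a difference of -0.31 (limma adjusted p = 0.425).

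Ccnf, which encodes the F-box protein cyclin F, measured 10.56, 10.54 and 10.64 in the KO arrays, against 10.85, 10.84 and 10.73 in the WT arrays, a difference of -0.23 without overlap. Ska3, of the complex that helps Ndc80 hold microtubule ends, measured 9.844, 9.721 and 9.789 in the KO arrays, against 10.047, 10.001 and 9.954 in the WT arrays, a difference of -0.22, also without overlap. Neither passed (limma adjusted p = 0.391 and 0.418). On the upper side, Anapc11, the RING subunit of the anaphase-promoting complex, had the highest moderated t and gave 0.24 (SE 0.10, 95% interval 0.01 to 0.47, limma adjusted p = 0.524). Mis18a, which licenses centromeres for new Cenpa, gave 0.19, the inner kinetochore genes Cenpq and Cenpp 0.19 and 0.14, and the augmin subunit Haus8 0.16. The largest upward difference was 0.32, for another gene of that complex and its regulators. Intervals lay within 0.5 of 0 for 127 of the 132 genes, and over all of them they reached down to -0.56 and up to 0.99.

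By role, 0 genes passed in limma in any of these lists. The 8 condensin subunits, which compact chromosomes, had a median of -0.02 and 0 at an unadjusted p under 0.05. The 18 genes of the anaphase-promoting complex and its regulators had a median of -0.05, with 5 higher and 13 lower in KO. Further genes of mitotic entry had the lowest median, -0.07, with 4 of 14 higher and 10 lower, 2 of them at an unadjusted p under 0.05. Among all probe sets, 55.8% had a lower KO mean and 9.22% an unadjusted p under 0.05. Other kinetochore genes had a median of -0.01 over 24 genes, other spindle and centrosome genes -0.02 over 28, other checkpoint genes -0.05 over 12 and other cytokinesis genes -0.02 over 14.

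Of the DNA replication and G1/S genes, which precede mitosis in the cycle, 46 of 47 listed were measured. Of these, 12 were higher and 34 lower in KO, with a median of -0.05, while 55.8% of all probe sets had a lower KO mean. Limma called 0, and 0 were higher and 3 lower at an unadjusted p under 0.05 (6.52%, against 9.22% of all probe sets). The array means of this list were 0.03, -0.06 and -0.15 in KO and 0.03, 0.01 and -0.03 in WT. KO replicate 3 was thus the lowest array for replication genes, whereas WT replicate 3 was the lowest for mitotic ones. Ccne1, which encodes cyclin E1 of the G1/S transition, measured 10.39, 10.21 and 10.21 in the KO arrays, against 10.55, 10.63 and 10.66 in the WT arrays, a difference of -0.34 (SE 0.08, 95% interval -0.53 to -0.16, limma adjusted p = 0.23). E2f1, a transcription factor of S phase genes, had the highest moderated t of this list, measured 10.14, 10.20 and 9.71 in the KO arrays, against 9.91, 9.78 and 9.45 in the WT arrays, and gave 0.30. Whether the mitotic and the replication list differ from each other was not tested.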

How the data were processed

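Labelled cDNA of 6 sorted cell samples was read on 1 Affymetrix array each. The deposited values are log2 intensities that the authors computed by RMA; the submitters' processing notes name Expression Console 1.1; its options are not given in the sources used here. RMA makes the intensity distributions of arrays alike and can compress changes of dim and very bright probe sets. Depth in reads does not apply, and the number of arrays limits precision. Of 35556 rows, 21789 carry exactly 1 symbol in the platform annotation, 1621 several and 12146 none; 0 symbols differed from RefSeq and 91 IDs had no match.

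The KO arrays were set against the WT arrays in limma 3.58.1, run in R 4.3.3 (lmFit and eBayes, prior degrees of freedom 4.33), with no covariate or filter and Benjamini-Hochberg adjustment over all 21789 probe sets, at 0.05. Intervals use the moderated SE. The fit was tested on simulated data. Promoter letters were searched with Python 3.11.15. Alternatives changed the rows tested, the prior, array weights, scaling, the probe set of a gene, the replicate number as a block and the arrays used.

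The members and gene lists were chosen with earlier results of these data known. Named in full are, by role group, the members with the highest and lowest moderated t and 7 set genes (Ccnb1 was not measured); of the other G2/M genes the 5 highest and 5 lowest by moderated t with Foxm1 and Mybl2; of replication genes the highest and the lowest; and Jup. Same-numbered KO and WT samples did not deviate together throughout, with correlations of 0.10, -0.004 and 0.27 over probe sets, so the numbers were not taken as pairs.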

Additional observations from a re-analysis of the deposited data

How the results depend on the processing

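In each of the 15 alternatives, 0 of the mitosis genes and 0 of the other G2/M genes passed the threshold in limma. The median difference of the mitosis genes ran from -0.08 to 0.006 when 1 array was left out, and stayed between -0.03 and -0.02 in the others; that of the other G2/M genes ran from -0.06 to -0.004 when 1 array was left out. At an unadjusted p under 0.05, 4 mitosis genes passed with a trended and robust prior or with array weights (Aurka, Spc25, Dlgap5 and Ect2), and 2 with a further quantile normalization or with the replicate number as a block, against 1 in the fit as reported. The count over all probe sets, 26 as reported, was 69 with all rows of the table, 40 with a trended and robust prior and 150 with array weights, and ran from 5 to 82 when 1 array was left out; the cause was not tested. The replicate number as a block gave 19 over all probe sets and 0 mitosis genes at an adjusted p under 0.05, and at an unadjusted p under 0.05 it gave Aurka and Spc25. KO replicates 1 and 2 both correlated best with WT replicate 1, and KO replicate 3 with WT replicate 3. Of the 22 named mitosis genes, 14 kept their sign in all alternatives run for them. The others lay near 0: Ube2c turned to -0.011 with array weights, and Top2a and Aurkb to 0.0087 and 0.011 with a further quantile normalization. When 1 array was left out, Ube2c ran from -0.0140 to 0.0346, Bub1b from -0.0306 to 0.0630, Top2a from -0.0711 to 0.0098, Racgap1 from -0.0331 to 0.0098, Nek2 from -0.0148 to 0.0715, Incenp from -0.0369 to 0.0093, Nusap1 from -0.0146 to 0.0696 and Aurkb from -0.0793 to 0.0227. The intervals are for 1 gene at a time. With 3 arrays per genotype and adjustment over all probe sets, differences whose own interval leaves out 0 also missed the threshold, Spc25 (-0.22) and Ckap2 (-0.34) among them.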
